A study of Mus musculus with 12 samples.

Results

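Oxidative phosphorylation is carried out by 5 protein complexes of the inner mitochondrial membrane. Complexes I and II take electrons from NADH and succinate, complex III passes them to cytochrome c, complex IV passes them on to oxygen, and complex V, the ATP synthase, uses the proton gradient so formed to make ATP. A few subunits are encoded by mitochondrial DNA, and the nucleus encodes the others. The transcripts described here are those nuclear-encoded subunits. Naive embryonic stem cells are known to use both respiration and glycolysis, and mitochondria are remodelled as cells differentiate.

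The subunits were found by symbol: entries of the deposited table that start with Ndufa, Ndufb, Ndufc, Ndufs, Ndufv, Uqcr, Cox4 to Cox8 or Atp5, and Sdha to Sdhd, with the assembly factors named Ndufaf left out. The rule gave 86 rows of 85 genes among 19708 distinct entries. Atp5g1 stood in the table more than once with identical values and was counted once. Complex I had 36 genes, complex II 4, complex III 8, complex IV 20 and complex V 17. Ndufa4 and Ndufa4l2 were placed in complex IV, since the Ndufa4 protein is known as a subunit of that complex. The filter on low levels, a mean level of at least 42.9 over the libraries, was passed by 82 of the 85. Cox6a2, Cox8b and Cox8c did not pass.

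The material was embryoid bodies (EBs) and embryonic stem cells (ESCs) of C57BL/6 mice, either Mettl3 knockout (KO) or wild type (WT). Mettl3 encodes the catalytic subunit of the enzyme that places N6-methyladenosine (m6A) on mRNA. The ESC medium was free of serum and held LIF and the 2 inhibitors known as 2i, and the EBs, which are aggregates of differentiating cells, were grown in serum medium on low-adhesion plates for a span of days that the labels give as a range. The libraries were taken 0, 4 and 8 h after actinomycin, a blocker of transcription. The 4 conditions were therefore KO EBs, WT EBs, KO ESCs and WT ESCs, with 3 times each and 1 library per time, 12 libraries in all and no replicates. The labels do not say whether the KO and WT lines were single clones, or whether the 3 times of a condition came from 1 culture.

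Reads came from the 3′ ends of poly(A) transcripts, so each transcript gives about 1 tag and levels need no division by length. Levels are the authors' normalized signal. Column totals ran over a 3.02-fold range. The largest was 11086748 (KO ESCs, 8 h) and the smallest 3673848 (WT EBs, 8 h). The smallest steps of the values gave 208872 (WT EBs, 8 h) to 666799 (KO EBs, 0 h) read equivalents per library, an inference from the values. The WT EB library of 8 h stood apart through the smallest total and the fewest read equivalents. Among 1426 entries from gene families with no known role in such cells, 26.7 to 36.2% were above 0 in the EB libraries and 6.80 to 9.61% in the ESC libraries. Mettl3 itself stood at 16.8, 40.7 and 84.0 in KO EBs at 0, 4 and 8 h, against 175, 86.0 and 77.4 in WT EBs. It stood at 98.1, 65.4 and 41.8 in KO ESCs, against 251, 64.8 and 113 in WT ESCs. As ppm of the column total, the 8 h levels were 13.4 in KO EBs and 21.1 in WT EBs. By limma, Mettl3 was not called in EBs (log2 difference −1.23, SE 0.51, adjusted p = 0.175) or in ESCs (−0.84, SE 0.51, adjusted p = 0.311). The labels do not name the deleted part of the gene, so 3′ tags do not check the labels, and KO below means the libraries labelled KO.

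Promoter windows are shown for 4 subunits as a description, and their part in the levels below was not tested. NRF1, ETS factors of the GABP kind, YY1, ERR, SP1 and CREB-type factors are textbook regulators of respiration genes. Windows of 250 bases before to 50 after the start came from RefSeq (GRCm38.p6) and covered 68 of the 82 genes in 73 windows. The letters searched on both strands were GCGCA and GCGC with any 1 base between them for NRF1, CCGGAAG for ETS, AAGATGGCG for YY1, TCAAGGTCA for ERR, GGGCGGGG for SP1 and TGACGTCA for the CRE. Capitals mark the matches. Sdha (chr13:74350191-74350490, minus strand) and Cox6a1 (chr5:115348909-115349208, minus strand) show the NRF1 match, the most frequent in these windows. Uqcrfs1 (chr13:30545267-30545566, minus strand) and Sdhb (chr4:140961021-140961320, plus strand) are shown because the knockout comparisons below turn on them.

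Sdha: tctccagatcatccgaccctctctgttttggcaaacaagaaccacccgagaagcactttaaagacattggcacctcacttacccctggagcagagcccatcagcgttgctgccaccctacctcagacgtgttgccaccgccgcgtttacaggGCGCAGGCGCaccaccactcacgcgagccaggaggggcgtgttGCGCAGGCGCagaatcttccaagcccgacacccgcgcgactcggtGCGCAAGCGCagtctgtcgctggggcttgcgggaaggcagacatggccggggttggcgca
Cox6a1: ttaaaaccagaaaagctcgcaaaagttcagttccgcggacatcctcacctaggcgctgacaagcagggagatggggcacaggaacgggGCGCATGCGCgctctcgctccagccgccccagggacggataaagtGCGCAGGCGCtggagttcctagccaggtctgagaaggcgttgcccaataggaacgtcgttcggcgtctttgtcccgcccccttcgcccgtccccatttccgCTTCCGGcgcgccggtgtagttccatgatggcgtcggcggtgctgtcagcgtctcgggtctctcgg
Uqcrfs1: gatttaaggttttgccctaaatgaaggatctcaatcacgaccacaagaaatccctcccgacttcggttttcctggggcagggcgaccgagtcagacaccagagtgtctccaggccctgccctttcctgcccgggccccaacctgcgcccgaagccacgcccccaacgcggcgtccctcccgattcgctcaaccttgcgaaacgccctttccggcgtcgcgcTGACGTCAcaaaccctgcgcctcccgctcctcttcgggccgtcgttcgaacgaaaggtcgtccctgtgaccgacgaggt
Sdhb: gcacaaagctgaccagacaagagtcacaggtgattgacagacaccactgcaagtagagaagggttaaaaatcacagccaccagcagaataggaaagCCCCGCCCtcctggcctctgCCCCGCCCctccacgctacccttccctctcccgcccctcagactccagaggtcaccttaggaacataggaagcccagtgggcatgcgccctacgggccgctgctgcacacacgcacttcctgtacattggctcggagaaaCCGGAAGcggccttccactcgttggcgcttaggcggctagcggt

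Sdha held 3 NRF1 matches and Cox6a1 held 2 and 1 ETS match. Uqcrfs1 held the CRE alone, and Sdhb held 1 ETS and 2 SP1 matches. The NRF1 letters stood in 24.7% of the subunit windows, against 9.49% of the windows of all tested genes and 4.603% of all windows. ETS letters stood in 23.3% of subunit windows, against 16.3% and 8.86%. The YY1 letters stood in 9.59%, against 2.81% and 1.403%, and the ERR letters in 2.74%, against 0.273% and 0.423%. The SP1 letters went the other way, with 16.4% of subunit windows against 31.9% of windows of tested genes and 17.6% of all windows. CRE letters stood in 5.48%, against 2.91% and 1.79%. A match is a string of letters and not a measured binding site.

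Subunit transcripts were short. In the GENCODE M21 annotation the 82 had a median length of 731.5 bases, against 3024 for the 12424 tested entries that could be matched. Their 3′ untranslated regions had a median of 150.5 bases, against 978. The letters GGACT, the commonest form of the sequence at which m6A is placed, stood in 52 of the 82 transcripts (63.4%), against 92.3% of all tested transcripts. Per kilobase the pooled counts were close, at 0.989 and 1.09. By complex, the share with at least 1 was lowest in complex I, at 17 of 36, and highest in complex IV, at 14 of 17. Sdhb and Ndufa12 held none. Cox6b2 and Cox6b1, an isoform pair encoded on chromosome 7, each held 1 in the coding sequence, from bases 267 and 214 of their transcripts. Uqcrfs1 (chromosome 13, base 947) and Cox7b (chromosome X, base 799) each held 1 in the 3′ untranslated region. The sites of these members, on which the knockout comparisons turn, are shown with GGACT in capitals.

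Cox6b2: aattttctGGACTaccaccgg
Cox6b1: aactacctGGACTtccaccgc
Uqcrfs1: agacacgtGGACTcagggcct
Cox7b: tagagactGGACTgtcaccaa

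The median knockout difference is given here by the number of these letters. In ESCs the median KO minus WT log2 difference was −0.23 for the 30 subunits with no GGACT, −0.25 for the 35 with 1, −0.39 for the 9 with 2 and −0.23 for the 8 with 3 or more. In EBs the medians were 0.32, 0.26, 0.17 and 0.18, so those of subunits with 2 or more lay below those with fewer. Over the 82 subunits the EB difference had a Spearman rho of only −0.105 with the GGACT number, against −0.296 with transcript length. These are descriptions of transcript letters, since no m6A map was used here.

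Together the subunits made up 2.42, 2.90 and 3.06% of the column total in KO EBs at 0, 4 and 8 h, and 2.49, 2.87 and 2.63% in WT EBs. They made up 2.51, 2.96 and 3.37% in KO ESCs and 2.81, 3.57 and 3.86% in WT ESCs. The share thus was greater at 8 h than at 0 h in each condition, least so in WT EBs. At every hour WT ESCs had the highest share. Complex II, the 4-subunit succinate dehydrogenase, had 0.059, 0.066 and 0.065% in KO EBs compared with 0.084, 0.087 and 0.081% in WT EBs, and 0.050, 0.068 and 0.067% in KO ESCs against 0.079, 0.104 and 0.118% in WT ESCs. These KO and WT shares of the column total did not overlap in either cell type. On the deposited levels the median KO minus WT log2 difference of complex II subunits in EBs was −0.715, −0.235 and 0.422 at 0, 4 and 8 h. In ESCs it was −0.493, −0.643 and −0.645. Complexes III and IV had higher shares in KO than in WT EBs at all 3 times. Complex III had 0.443, 0.493 and 0.553% in KO EBs and 0.385, 0.447 and 0.444% in WT EBs. Complex IV had 0.561, 0.729 and 0.783% in KO EBs and 0.528, 0.653 and 0.619% in WT EBs.

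**Figure D1:**
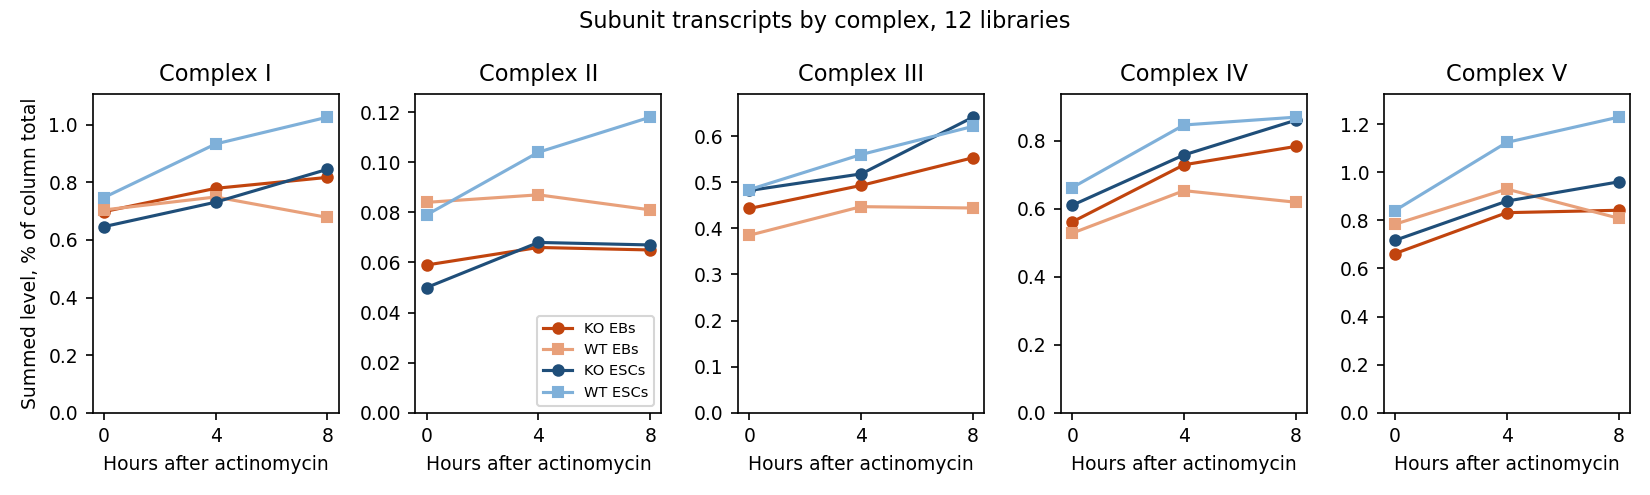
Summed level of the subunits of each complex as a percent of the column total (vertical axes, each from 0) against hours after actinomycin, 1 library per point, for KO EBs, WT EBs, KO ESCs and WT ESCs. In complex II both KO lines lie below both WT lines, and WT ESCs reach 0.118% at 8 h.

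Levels within a complex spread widely, here among the 82 subunits past the filter. In complex I the highest mean level over the 12 libraries was that of Ndufa7, an accessory subunit, at 4511, and the lowest that of Ndufs1, the largest iron-sulfur subunit, at 429. Complex II was the most even, with Sdhc, a membrane anchor, at 2145 and Sdha, the flavoprotein, at 1215. Complex III ran from Uqcrb at 8688 to the core protein Uqcrc2 at 763. Complex IV ran from Cox4i1, the ubiquitous form of subunit 4, at 16910 to Cox7b2, known from testis, at 45.2. Complex V ran from Atp5b, the catalytic beta subunit, at 19370, the highest of the 82, to Atp5g2 at 600. The order follows transcripts and not proteins, which are present in fixed numbers in each complex.

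Several complex IV subunits have tissue-bound isoforms, and the ubiquitous form dominated nearly all of them. Cox4i2, known as the form induced in low oxygen, made up 0.0953 to 1.03% of the Cox4i1 and Cox4i2 sum. Cox7a1, the heart and muscle form, made up 1.55 to 9.38% of its sum with Cox7a2 (mean level 3780), while Cox7a2l, a related supercomplex factor, had a mean of 1783. Ndufa4l2, also known from low oxygen, made up 0.290 to 6.73% of its sum with Ndufa4. Cox7b2 held at most 4.92 read equivalents in any library, beside Cox7b at a mean level of 9831. Cox8b and Cox8c, the muscle and testis forms, had means of 25.0 and 20.1, against 3278 for Cox8a. Cox6a2, the muscle form, was listed at 0 in 9 of the 12 libraries and stood at 21.2, 28.8 and 9.78 in KO EBs, compared with a mean of 5598 for Cox6a1. The 3 genes of the c subunit of the ATP synthase rotor ranked Atp5g3 (7977), Atp5g1 (1605) and Atp5g2 (600). Atp5g1 made up 14.2 to 18.9% of its sum with Atp5g3 over the libraries.

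The exception was Cox6b2, the form of subunit 6B known from testis. It stood at 1514, 2892 and 2659 in KO EBs at 0, 4 and 8 h, against 604, 1230 and 241 in WT EBs. In KO ESCs it stood at 840, 1766 and 1644, against 2113, 2739 and 1852 in WT ESCs. Its level was above that of WT at every hour in KO EBs and below it at every hour in KO ESCs. The summed level of 5 germ line markers was 1403, 1542 and 1291 in KO EBs, compared with 757, 938 and 629 in WT EBs, and 765, 738 and 1112 in KO ESCs, against 1105, 1222 and 1337 in WT ESCs. It too was higher in KO EBs and lower in KO ESCs at every hour, and its part in the Cox6b2 difference was not tested. As a share of Cox6b2 plus Cox6b1 it was 43.5, 54.1 and 46.9% in KO EBs, compared with 17.8, 33.1 and 15.1% in WT EBs. The share was 17.8, 27.2 and 22.4% in KO ESCs, against 34.1, 37.2 and 30.1% in WT ESCs. These shares are free of any scaling between libraries, and KO and WT did not overlap in either cell type.

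The KO and WT libraries were compared with limma across all 12704 tested entries, as the mean over 0, 4 and 8 h, with Benjamini-Hochberg adjustment and a threshold of 0.05. With 1 library per group, each entry's error comes from departures of the 3 times from a straight line fitted to each condition. Departures in all 4 conditions enter 1 shared error with 4 residual degrees of freedom. limma then draws that error toward a trend across entries, which carries a weight of 11.1 degrees of freedom. A shift common to the 3 libraries of a condition does not enter it. The p-values therefore do not measure the spread between cultures. In ESCs 10 of the 82 subunits were lower in KO than in WT and 1 was higher. This is 12.2% lower and 1.22% higher among the subunits, where over all tested entries 14.1% were called, 3.27% lower and 10.9% higher. The median log2 difference was −0.26 for the subunits and 0.18 for all entries. The 10 were Ndufb10, Ndufv3, Ndufa11 and Ndufb11 of complex I, Sdhb of complex II, Ndufa4, Ndufa4l2 and Cox7b of complex IV, and Atp5b and Atp5pb of complex V. The lower count was 10 with equal column totals, 17 with median-ratio scaling and 9 with ribosomal protein scaling. The subunit median lay below that of all entries under each of them, at −0.28, −0.44 and −0.17 against 0.16, 0.02 and 0.26. With additive time terms, which set KO against WT at matched hours, 2 subunits were called, both lower, and with no variance trend 1 was. By hour, 66, 63 and 48 of the 82 subunits were lower in KO ESCs at 0, 4 and 8 h. Of all tested entries 48.24, 41.05 and 39.54% were lower. With the 0 h or the 8 h library of KO ESCs left out 2 subunits were called in all, and with that of 4 h left out 6 were. Leaving out 0, 4 or 8 h of WT ESCs gave 5, 4 and 5. Here and below, without 0 or 8 h a condition's line runs through 2 points, so its level is that of the 4 h library alone. Those 2 runs therefore give the same level difference and do not tell the 2 libraries apart.

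Sdhb, the iron-sulfur subunit that hands electrons from the flavoprotein to the membrane part of complex II, had the smallest adjusted p of the subunits in ESCs. It stood at 1083, 1438 and 1748 in KO ESCs at 0, 4 and 8 h, against 3048, 3647 and 3539 in WT ESCs. The 2 sets of libraries did not overlap. The log2 difference was −1.28 (SE 0.21, limma adjusted p = 0.000978), and the call held in each of the 22 alternatives run. Sdhb made up 20.8, 19.2 and 23.6% of the complex II sum in KO ESCs, against 35.0, 31.6 and 29.7% in WT ESCs. In EBs its log2 difference was not called, with 1356, 1129 and 1017 in KO EBs compared with 2015, 1613 and 735 in WT EBs. The other subunits of complex II were not called in either cell type. In ESCs Sdha stood at 1299, 1453 and 1303 in KO against 1928, 2388 and 2162 in WT. Sdhc, a membrane anchor, stood at 1685, 2334 and 2507 in KO ESCs against 2254, 3476 and 3449 in WT ESCs. Sdhd, the other anchor, overlapped between genotypes, with 1150, 2280 and 1865 in KO ESCs against 1479, 2017 and 2758 in WT ESCs.

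Cox7b, a small subunit of complex IV, stood at 7378, 11050 and 15560 in KO ESCs, against 14430, 22310 and 18470 in WT ESCs. Its log2 difference was −0.74 (SE 0.17, limma adjusted p = 0.00974), and 1 KO library overlapped the WT range. The call was lost on leaving out 0 or 8 h of KO ESCs (adjusted p = 0.128 and 0.132) or 4 h of WT ESCs (0.0542), with additive time terms (0.179) and with no variance trend (0.166). Ndufb11, a membrane-arm accessory subunit of complex I, stood at 1213, 2503 and 3877 in KO ESCs, against 2586, 4502 and 5442 in WT ESCs, and the libraries overlapped. Atp5b, the most abundant of the subunits, stood at 14680, 22430 and 24820 in KO ESCs, against 24760, 33140 and 33180 in WT ESCs. The highest KO value lay just above the lowest WT value. Its log2 difference was −0.58 (SE 0.16, limma adjusted p = 0.0216). The Atp5b call held in 14 of 22 alternatives, and was lost on leaving out 0 or 8 h of KO ESCs or any 1 library of WT ESCs, with adjusted p-values over the alternatives of up to 0.305. Of the others, the log2 differences ran from −0.59 for Ndufa11 through −0.65 for Ndufa4, −0.66 for Atp5pb, −0.81 for Ndufb11 and −0.82 for Ndufb10 to −0.84 for Ndufv3, with adjusted p-values from 0.0134 to 0.0352. All 6 lost their call with additive time terms and with no variance trend. Ndufa11, Ndufa4 and Atp5pb, whose calls held in 11, 13 and 10 of 22 alternatives, also lost it on leaving out any 1 ESC library. Ndufb10 and Ndufb11 each kept it in 17 and Ndufv3 in 16. Ndufa4l2, at −1.90, rested on fewer than 1 read equivalent per KO ESC library, and its call held in 6 of 21 alternatives. Annotated copies (Atp5pb-ps for Atp5pb and Ndufa11b for Ndufa11) could share reads with their genes, and Ndufb11 and Ndufa4l2 overlap Rbm10 and Shmt2.

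The only subunit higher in KO ESCs was Uqcrfs1, the Rieske iron-sulfur protein of complex III, which takes electrons from ubiquinol. It stood at 2852, 4404 and 5062 in KO ESCs, against 1951, 2247 and 1965 in WT ESCs, with no overlap. The log2 difference was 0.96 (SE 0.21, limma adjusted p = 0.00795). That call was lost on leaving out 0 or 8 h of KO ESCs (adjusted p = 0.0569 and 0.0594) or 0 or 8 h of WT ESCs (0.119 and 0.121), with additive time terms (0.161) and with no variance trend (0.088). In EBs it was higher in KO too, at 1649, 2349 and 2188 in KO EBs compared with 1149, 761 and 290 in WT EBs. There the log2 difference was 1.67 (SE 0.21, limma adjusted p = 0.00015), and the call held in each of the 22 alternatives. As a share of the complex III sum Uqcrfs1 had 5.26, 6.93 and 6.33% in KO EBs compared with 3.59, 2.81 and 1.78% in WT EBs. It had 5.67, 7.74 and 7.13% in KO ESCs against 3.66, 3.62 and 3.15% in WT ESCs. At each hour in each cell type, KO lay above WT on both measures.

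In EBs 10 of the 82 subunits were higher in KO than in WT by limma and 0 were lower. That is 12.2% higher, where over all tested entries 9.22% were called, 7.66% higher and 1.56% lower. At an unadjusted p under 0.05 the counts were 28 higher and 0 lower, and all entries were not counted at that threshold. The median log2 difference was 0.25, against 0.09 for all entries. Complex III gave 4 of the 10 (Uqcr10, Uqcrq, Uqcrfs1 and Uqcrb, of 8 tested) and complex IV 3 (Cox6c, Cox6b2 and Cox7b), and Ndufa12 of complex I and Atp5mpl of complex V were also among them. The result as a group followed the scaling and the hour. The median difference was −0.28 at 0 h (19 subunits higher, 63 lower), 0.19 at 4 h (54 higher, 28 lower) and 0.96 at 8 h (79 higher, 3 lower). The median over all entries was −0.18, 0.11 and 0.38. Of all entries 59.99% were lower at 0 h, and 55.61 and 63.12% were higher at 4 and 8 h. With equal column totals 6 were higher and 0 lower, with median-ratio scaling 3 and 0, and with ribosomal protein scaling 3 higher and 9 lower. The subunit medians were 0.02, 0.07 and −0.18, against −0.14, −0.09 and −0.32 over all entries. Leaving out 0 or 8 h of WT EBs gave 2 calls, and leaving out 0, 4 or 8 h of KO EBs gave 3, 4 and 3. Additive time terms gave 3 and no variance trend 2. The summed level of 8 endoderm markers differed between the same libraries, at 214 to 373 in KO EBs and 4415 to 7460 in WT EBs, and that of 8 pluripotency markers was 25440 to 29120 in KO EBs and 9127 to 30770 in WT EBs. That of 6 fibroblast and feeder markers was 748 to 908 in KO EBs and 1867 to 2348 in WT EBs, and that of the 5 germ line markers 1291 to 1542 in KO EBs and 629 to 938 in WT EBs. In ESCs the pluripotency sums were 39600 to 42740 in KO and 71350 to 78410 in WT. Their part in these differences was not tested.

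**Figure D2:**
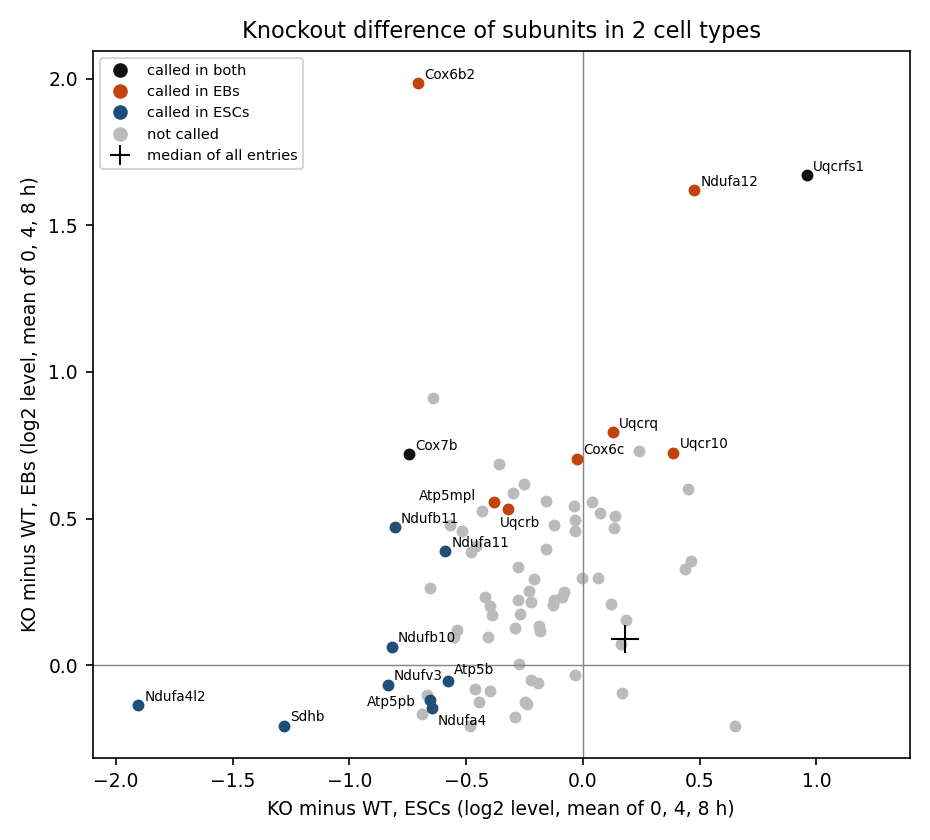
KO minus WT log2 level difference in ESCs (horizontal axis) against that in EBs (vertical axis) for the subunits reported here, each a mean over 3 times. Named points passed limma's adjusted p threshold in at least 1 cell type, and the cross marks the median of all tested entries, 0.18 in ESCs and 0.09 in EBs; Uqcrfs1 alone is called higher in both.

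Ndufa12, an accessory subunit of complex I that sits close to its iron-sulfur chain, stood at 740, 790 and 823 in KO EBs, compared with 399, 227 and 170 in WT EBs. The libraries did not overlap. The log2 difference was 1.62 (SE 0.25, limma adjusted p = 0.00063), kept under all 3 other scalings and without any 1 library. It was lost without both 8 h EB libraries (adjusted p = 0.117). An annotated copy, Ndufa12-ps, could share its reads. In ESCs it stood at 1174, 1163 and 1525 in KO against 989, 800 and 970 in WT and was not called. Cox6b2, whose values stand above, had a log2 difference of 1.99 (SE 0.38, limma adjusted p = 0.00371). That call was lost on leaving out WT EBs at 0 h or at 8 h. Both runs read the WT level from the 4 h library alone and gave 0.88 (limma adjusted p = 0.237 and 0.248). It was also lost without both 8 h EB libraries (1.23) and with no variance trend (limma adjusted p = 0.0997). The call held under all 3 scalings.

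The other EB calls were smaller. Uqcrq, a small complex III subunit, stood at 6898, 6348 and 6984 in KO EBs, compared with 4805, 4738 and 2569 in WT EBs (log2 difference 0.79, SE 0.17, limma adjusted p = 0.00814). Uqcr10 stood at 3989, 4685 and 4705 in KO EBs, compared with 3100, 2712 and 2307 in WT EBs (0.72, SE 0.16, limma adjusted p = 0.00772). In both, each KO EB library lay above each WT EB library. Cox7b stood at 5107, 5920 and 6631 in KO EBs, compared with 4593, 4213 and 2311 in WT EBs (0.72). Cox6c, Atp5mpl and Uqcrb had differences of 0.70, 0.56 and 0.53, with limma adjusted p-values of 0.027, 0.0499 and 0.0477. All of these 6 lost their call on leaving out both 8 h EB libraries, or 0 or 8 h of either KO or WT EBs, and all 6 lost it with median-ratio scaling. Uqcrq overlaps Gdf9, Uqcr10 overlaps Gm51883, and Cox6c has the copy Cox6c2.

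**Figure D3:**
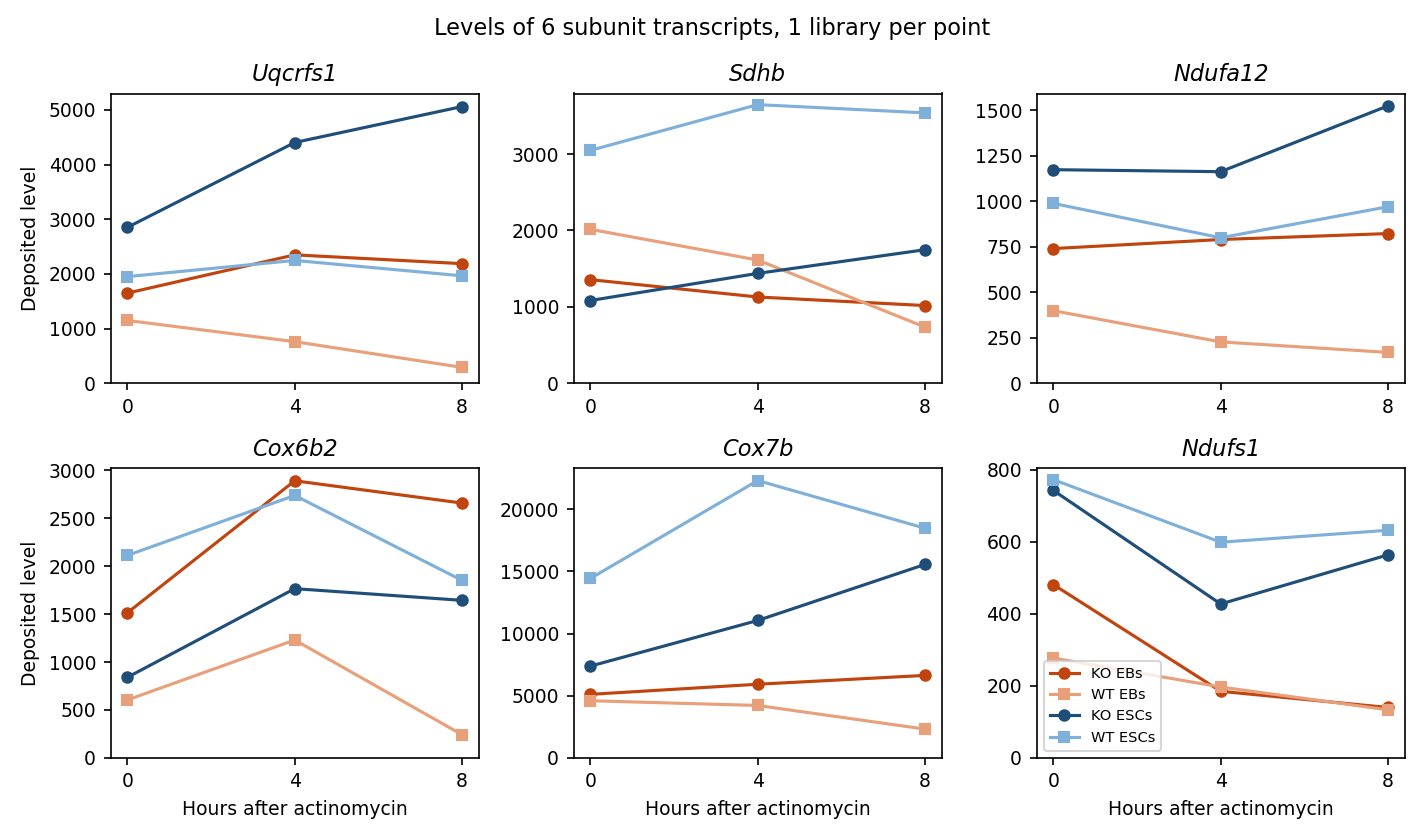
Deposited level (vertical axes, each from 0) of 6 subunit transcripts against hours after actinomycin in KO EBs, WT EBs, KO ESCs and WT ESCs, 1 library per point. KO lies above WT for Uqcrfs1 at every hour in both cell types, while Sdhb lies between 1083 and 1748 in KO ESCs and between 3048 and 3647 in WT ESCs.

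The knockout difference itself was set between cell types, as the KO minus WT difference in EBs less that in ESCs. It was higher in EBs for 6 of the 82 subunits and lower for 0, where 2.86% of all tested entries were called, 1.5% higher and 1.35% lower. Among the 6 were Ndufa11 and Ndufb11 of complex I, Cox6b2 and Cox7b of complex IV and Atp5mpl of complex V. Of the called subunits Cox6b2 had the widest gap at 2.69 (SE 0.54, limma adjusted p = 0.0126), followed by Cox7b at 1.46 (SE 0.24, adjusted p = 0.00318). With no variance trend Cox6b2 had an adjusted p of 0.178 and Cox7b 0.189, and with additive time terms Cox7b had 0.159. Both held under the 3 other scalings, while the count became 4 higher with equal totals or median-ratio scaling, and 2 higher and 2 lower with ribosomal protein scaling. Cox7b lost its call on leaving out 8 h of KO EBs (adjusted p = 0.0539) or KO ESCs (0.0505), and Cox6b2 on leaving out any 1 of 5 libraries, with adjusted p-values of 0.057 to 0.138. At an unadjusted p under 0.05, 28 subunits were higher and 0 lower, and all entries were not counted at that threshold. The median was 0.51 for the subunits and −0.051 for all entries. Leaving out a single library gave 0 calls for 8 h of KO EBs or KO ESCs and 1 for 0 h of KO ESCs or 0 or 8 h of WT EBs. It gave 2 for 0 or 4 h of KO EBs or 4 h of WT ESCs, and 3 for 4 h of KO ESCs or 0 or 8 h of WT ESCs.

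The EB libraries had lower subunit levels than the ESC libraries. In WT 76 of 82 subunits were lower in EBs and 0 higher, where 32.6% of all tested entries were called, 29.1% lower and 3.49% higher. The median log2 difference was −1.22, against −0.50 over all entries. All 8 subunits of complex III and all 4 of complex II were called, with 35 of 36 in complex I, 16 of 17 in complex V and 13 of 17 in complex IV. In KO 49 of 82 were lower and 0 higher, where 24.1% of all entries were called, 23.2% lower and 0.929% higher, with medians of −0.69 and −0.61. At an unadjusted p under 0.05 higher subunits numbered 0 in WT and 1 in KO. The 49 called in KO were among the 76 called in WT. Column totals were 3673848 to 8311484 in EBs and 10057266 to 11086748 in ESCs, and the scaling set how many passed. With equal column totals, median-ratio and ribosomal protein scaling the WT counts were 21, 32 and 23, all lower, and the KO counts were 1, 0 and 15. The WT medians under these scalings were −0.31, −0.53 and −0.31 for the subunits and 0.34, 0.13 and 0.33 for all entries. The KO medians were −0.01, −0.02 and −0.31 for the subunits and 0.05, 0.03 and −0.25 for all entries. In KO the subunits thus lay within 0.1 log2 units of the median entry under each scaling. Leaving out 0 or 8 h of WT EBs gave 53 each in WT. Leaving out 0 or 8 h of KO EBs gave 2 each in KO, and leaving out 0, 4 or 8 h of KO ESCs gave 18, 31 and 15.

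Among the 6 widest differences of called subunits in WT were those of Cox7b, Cox6b2, Ndufa1, Ndufa12 and Ndufb11. Cox7b, with the EB and ESC values given above, had −2.35 (SE 0.17, limma adjusted p = 6.18e-07). Ndufa1, a small membrane-arm subunit encoded on the X chromosome, stood at 1068, 719 and 447 in WT EBs, against 1720, 3136 and 3082 in WT ESCs. The log2 differences of Cox6b2, Ndufa1, Ndufa12 and Ndufb11 were −1.95, −1.85, −1.84 and −1.83. All of these but Cox6b2 kept their call in each of the 22 alternatives, scalings included. In KO the 6 widest of the called subunits were Uqcr10 (−1.29), Ndufs1 (−1.25), Atp5pb (−1.15), Sdha (−1.12), Atp5g3 (−1.11) and Ndufa4 (−1.10). Ndufa4l2, at a few read equivalents, had 1.66 and was not called (adjusted p = 0.0514 by limma). Uqcr10, at 3989, 4685 and 4705 in KO EBs compared with 10610, 9748 and 12490 in KO ESCs, had an adjusted p of 0.000206 by limma and kept its call in 20 of 22 alternatives. Marker sums moved with this comparison. Endoderm markers were 4415 to 7460 in WT EBs and 206 to 298 in WT ESCs, but 214 to 373 in KO EBs and 237 to 341 in KO ESCs. Pluripotency markers were lower in EBs than in ESCs in both genotypes. Heart and skeletal muscle markers, tissues rich in mitochondria, were 306 to 563 in WT EBs and 311 to 665 in WT ESCs. Fibroblast and feeder markers were 1867 to 2348 in WT EBs and 538 to 1774 in WT ESCs, and germ line markers 629 to 938 in WT EBs and 1105 to 1337 in WT ESCs. The share of silent-family entries above 0 was also higher in all EB libraries. The part of any of these in the result was not tested, and in bulk RNA fewer cells of a type and less RNA per cell cannot be told apart.

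After actinomycin the median subunit stayed above the median over all entries at 4 h in each condition, and at 8 h in 3 of the 4. At 8 h the median subunit stood at 110% of its 0 h level in KO EBs, 45.2% in WT EBs, 136% in KO ESCs and 121% in WT ESCs. The medians over all entries were 83.0, 49.0, 93.3 and 76.4%. Among other entries whose 0 h levels lay in the main range of the subunits' levels, they were 77.4, 30.7, 91.5 and 70.9%. Against those entries the median subunit was higher in each condition, WT EBs included. Of the 82 subunits 70, 31, 73 and 79 lay above the all-entry median in those conditions. At 4 h the subunit medians were 115, 84.3, 127 and 129%, against 90.4, 71.5, 96.7 and 81.9%, and 71, 62, 68 and 77 subunits lay above. Levels are relative to the scaling of each library, so a value over 100% does not count molecules. With equal column totals the 8 h medians were 124, 102, 128 and 132%, with ribosomal protein scaling 105, 107, 102 and 100.1%. The position against other entries does not depend on scaling. The 84 cytoplasmic ribosomal protein entries, another set of long-lived transcripts, stood at 102, 40.7, 129 and 121% at 8 h, close to the subunits in each condition.

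**Figure D4:**
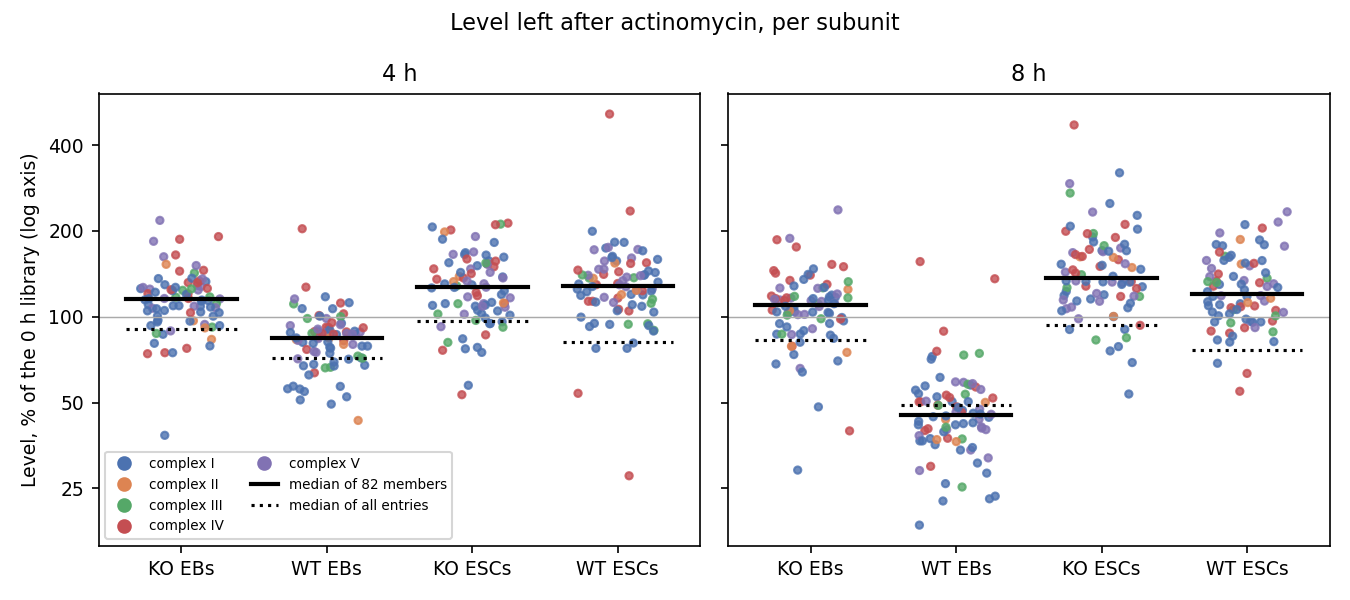
Level at 4 h (left) and 8 h (right) as a percent of the 0 h library (log axis) for the 82 subunits in KO EBs, WT EBs, KO ESCs and WT ESCs, coloured by complex, with the subunit median (solid line) and the median of all entries (dotted line). At 8 h the subunit median lies above the dotted line in KO EBs, KO ESCs and WT ESCs and just under it, at 45.2%, in WT EBs.

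The subunits differed among themselves. By the mean of the 4 conditions at 8 h, the highest were Cox4i2 (200.2%), Atp5md (194%), Ndufb11 (178%), Cox7c (145%), Ndufa1 (143%) and Uqcrb (143%). Cox4i2 held at most 5.28 read equivalents in any library. Atp5md, a small subunit that helps ATP synthase form dimers, stood at 237% in KO EBs, 32.0% in WT EBs, 293% in KO ESCs and 215% in WT ESCs. The lowest were Ndufs1 (58.7%), Ndufs7 (67.4%), Ndufv1 (69.1%), Ndufv2 (73.1%), Uqcrc1 (75.2%) and Ndufa9 (76.0%). Of these, Ndufs1, Ndufs7, Ndufv1 and Ndufv2 are core subunits of complex I that hold its flavin or iron-sulfur clusters, and Uqcrc1 is a core protein of complex III. Ndufs1 stood at 29.0% in KO EBs, 48.1% in WT EBs, 75.9% in KO ESCs and 81.8% in WT ESCs. The 7 nuclear-encoded core subunits of complex I, a set chosen after the values were seen, had a median of 73.1% and the 29 accessory subunits 103%. Their median lengths were 1623 and 683 bases.

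Longer transcripts had less left. Over the 82 subunits the mean share left at 8 h had a Pearson r of −0.46 with log10 length and a Spearman rho of −0.50, a description across genes that share the same libraries. The length of the 3′ untranslated region (r = −0.13) and the number of GGACT letters (r = −0.06) showed less. Overlapping genes could add reads to some of these, among them Taf5 for Atp5md, Rnf113a1 for Ndufa1, Ino80dos for Ndufs1 and Ankrd12 for Ndufv2.

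**Figure D5:**
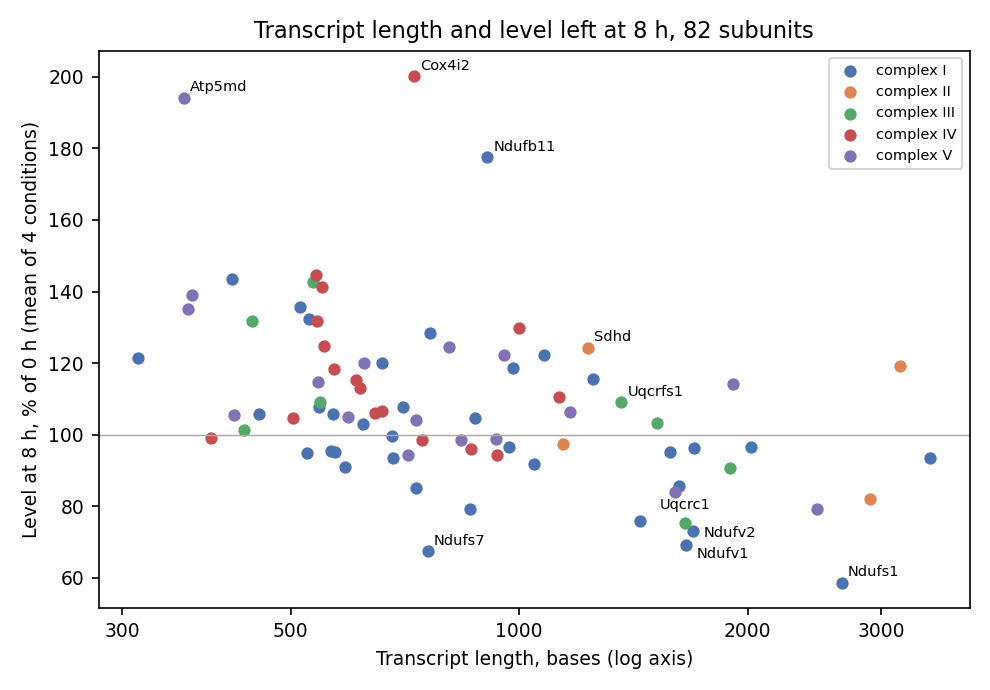
Transcript length in bases (log axis) against the level at 8 h as a percent of 0 h, averaged over the 4 conditions, for 82 subunits coloured by complex. Ndufs1 has the least left at 58.7%. The points above 140% are shorter than the subunit median of 731.5 bases, except Ndufb11 at 908 bases. Cox4i2, among them, is near the detection limit.

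By limma, the mean slope over the 4 conditions was called for 5 of the 82 subunits, 4 lower and 1 higher. Over all tested entries 21.4% were lower and 0.236% higher, 21.7% in all. Ndufs1 fell by 0.11 log2 units per hour (SE 0.03, limma adjusted p = 0.0347), Ndufv1 by 0.09 (adjusted p = 0.0163), Ndufs7 by 0.09 (adjusted p = 0.0167) and Uqcrc1 by 0.06 (adjusted p = 0.0174). Ndufb11 rose by 0.06 (SE 0.02, adjusted p = 0.0467). The median slope was −0.01 for the subunits and −0.05 for all entries. Slopes follow the scaling. With equal column totals 19 subunits were higher and 0 lower, with median-ratio scaling 22 and 0, and with ribosomal protein scaling 7 and 3. Leaving out a single library gave 0 calls for 0 or 8 h of KO EBs or 8 h of WT ESCs, 1 for 8 h of WT EBs, 8 h of KO ESCs or 0 h of WT ESCs, and 2 for 0 h of WT EBs or KO ESCs.

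The slopes of KO and WT were then compared. In ESCs limma called 0 of 82 subunits and 0.0394% of all entries, and at an unadjusted p under 0.05 it gave 1 higher and 0 lower. In EBs 3 were higher and 0 lower, where 1.19% of all entries were higher and 0 entries lower. They were Atp5md (0.36 log2 units per hour, SE 0.08), Uqcrfs1 (0.30, SE 0.07) and Uqcrb (0.22, SE 0.05), with adjusted p-values of 0.0427, 0.0439 and 0.0439. Atp5md stood at 682, 1483 and 1615 in KO EBs at 0, 4 and 8 h, against 1197, 1037 and 383 in WT EBs. Uqcrb stood at 6583, 7706 and 8311 in KO EBs, compared with 8235, 5476 and 3073 in WT EBs. At an unadjusted p under 0.05, 49 subunits were higher and 0 lower, a threshold at which all entries were not counted. The median slope difference was 0.148 for the subunits and 0.083 for all entries, so both lay above 0. The 3 calls went to 0 under each of the 3 other scalings and on leaving out 8 h of WT EBs, the library with the smallest total. They also went to 0 on leaving out any 1 library of KO EBs, KO ESCs or WT ESCs, and to 15 on leaving out 4 h of WT EBs. Between EBs and ESCs limma called 0 slopes among the subunits and 0.00787% among all entries. At an unadjusted p under 0.05 there were 0 higher and 49 lower, with all entries again not counted. The medians were −0.117 for the subunits and −0.047 for all entries. The count of calls was 5 on leaving out 0 h of WT EBs and 10 on leaving out 4 h.

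The other genes of the pathway were described by 3 lists. Their counts stand beside the shares of all tested entries, which were 10.9% higher and 3.27% lower for KO against WT in ESCs and 7.66% higher and 1.56% lower in EBs. The shares lower in EBs than in ESCs were 29.1% in WT and 23.2% in KO, and 21.4% of mean slopes were lower. The lists were tested on the deposited scaling only, and no alternatives were run for them. With equal column totals the median EB minus ESC difference over all entries went from −0.50 to 0.34 in WT. In KO it went from −0.61 to 0.05. Of 40 assembly factors tested, proteins that help build the complexes without being part of them, 10 were higher and 1 lower in KO than in WT ESCs, and 9 higher and 0 lower in EBs. Their median differences were 0.69 and 0.62, against 0.18 and 0.09 over all entries. Coa7, a factor for complex IV, stood at 724, 991 and 745 in KO EBs, compared with 195, 106 and 48.6 in WT EBs, and at 1257, 1300 and 1076 in KO ESCs, against 372, 205 and 75.2 in WT ESCs. In each cell type every KO library lay above every WT library, with log2 differences of 2.90 in EBs (SE 0.30, limma adjusted p = 1.84e-05) and 2.68 in ESCs (SE 0.30, adjusted p = 4.66e-05). Tmem70, a factor for ATP synthase, was higher by 1.85 in EBs and 2.66 in ESCs. Ndufaf4, a complex I factor, was higher by 2.14 and 2.59, and Ndufaf1, another, by 2.33 in EBs. In ESCs Ndufaf4 stood at 195, 851 and 515 in KO at 0, 4 and 8 h, against 230, 198 and 0 in WT. Its KO level thus lay below WT at 0 h, and the WT library of 8 h was at 0. Uqcc3, a complex III factor, was higher by 1.90 in ESCs. Between EBs and ESCs, 15 assembly factors were lower in WT (Sco1, Ecsit, Coa5 and Acad9 the most) and 16 in KO (Sco1, Cox11, Cox18 and Atpaf2 the most). Their mean slope was lower in 6 of 40, less than the share over all entries, with Sdhaf1, Cox10, Uqcc3 and Coa7 the steepest.

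Of 16 electron carriers and citrate cycle enzymes, 5 were lower and 1 higher in KO than in WT ESCs, and 0 lower and 1 higher in EBs. Fh1, the fumarase that takes up the product of succinate dehydrogenase, stood at 969, 1030 and 592 in KO ESCs, against 1757, 2241 and 1696 in WT ESCs, with no overlap (−1.16, SE 0.27, limma adjusted p = 0.00959). Idh3g and Suclg1, an isocitrate dehydrogenase and a succinyl-CoA ligase subunit, had −1.03 and −1.01. Ogdh, a subunit of oxoglutarate dehydrogenase, was the one higher in both cell types, by 1.33 in ESCs and 1.23 in EBs. In EBs against ESCs, 15 of the 16 were lower in WT, with Idh3g (−2.47), Mdh2 (−1.96), Dlst (−1.94) and Idh2 (−1.81) the most, and 11 in KO, with Cs, Cycs, Dlst and Dld the most. The knockout difference was higher in EBs than in ESCs for 3 of the 16, Idh3g, Idh2 and Mdh2, and lower for 0. Over all tested entries 1.5% were higher and 1.35% lower. The mean slope was lower for Cyc1 alone, the cytochrome c1 of complex III, whose symbol falls outside the rule for the subunits.

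Of 13 transcriptional regulators of respiration genes, Esrra was higher in KO ESCs (1.23, SE 0.37, limma adjusted p = 0.0366) and Pprc1 in KO EBs (1.57, SE 0.38, adjusted p = 0.0172), and 0 were lower in either. In EBs against ESCs, 4 were lower in WT (Pprc1, Tfam, Polrmt and Gabpa) and 3 in KO (Polrmt, Gabpb2 and Gabpa), counts near the shares over all entries. Their median mean slope was −0.105 log2 units per hour. The mean slope was called lower for 4 of the 13, Pprc1 at −0.33 log2 units per hour, Yy1 at −0.19, Polrmt at −0.18 and Tfam at −0.17. Pprc1, a coactivator, stood at 649, 302 and 133 in KO EBs, 409, 48.3 and 37.99 in WT EBs, 1203, 584 and 207 in KO ESCs and 824, 268 and 120 in WT ESCs at 0, 4 and 8 h.

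Across the 12 libraries the subunits followed their own sum. The log2 level of the median subunit had a Pearson r of 0.92 with the log2 sum of all subunits, and 55 of 82 were over 0.9. Among 3273 other entries of at least 50 ppm the median was 0.76, with 534 over 0.9. The subunits are part of that sum, and all entries share the scaling of a library. The 5 entries most like the sum were Rplp0 (0.99), a ribosomal protein gene, Hnrnpk (0.99), an RNA-binding protein gene, Pabpc1 (0.99), a poly(A)-binding protein gene, the entry listed as Mir7-1 (0.98), and Get3 (0.98), a factor for tail-anchored membrane proteins.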

How the data were processed

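Poly(A) 3′-end RNA sequencing of 12 libraries (KO or WT EBs and ESCs, 3 times, 1 library per group) was analysed from 1 deposited table of normalized signal per RefSeq entry. Groups came from the sample titles. Bowtie2 2.1.0, Bowtie, CASAVA 1.8.2 and the mm10 build are named in the submitters' processing notes. The way the authors counted and scaled the deposited signal was not given in the sources used here, so the true depth is unknown and read equivalents are an inference from the values. The cDNA kept the strand, per the labels' protocols, but whether counting used it is unknown.

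Of 19746 rows, 19535 were matched to symbols in RefSeq (GRCm38.p6) and 98 in GENCODE M21, 113 kept their ID, and 38 identical duplicates were dropped. Entries with a mean of at least 42.9 (5 ppm of the mean column total) entered limma 3.58.1 (R 4.3.3), as log2 of the level plus 8.58, which is 1 ppm. Differences of low entries are understated on that scale. The fit had a line over hours for each of 4 conditions, 8 coefficients, 4 residual degrees of freedom and a trended variance prior worth 11.1. A level difference is the difference of the lines at the middle time. Errors are limma's SE. The fit was tested on simulated data. Alternatives changed the pseudocount, the filter, the scaling, the variance prior, the time model and the libraries used. With additive time terms the slopes of the conditions are equal, so slope results have no such value. Figures and summaries used Python 3.11.15, pandas 2.3.3 and matplotlib 3.10.9.

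Genes are named by these rules: Mettl3; each called subunit where at most 12 are called, otherwise the 6 widest differences among those called; the highest and lowest level in each complex past the filter; the isoform sets; the 6 largest and 6 smallest shares left at 8 h; complex II; and up to 4 called entries of each pathway list. Members, lists and rules were chosen with earlier results of these data known. Values of 1 called subunit are not reported here, though counts over all subunits include it. Shares within a complex were added after the values were seen. Of the 85 subunits, 14 have an annotated copy and 21 overlap another gene, and their values are uncertain to that extent.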

Additional observations from a re-analysis of the deposited data

Results flagged for a closer look

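The knockout difference differed between cell types, by the test of that difference in limma, for 6 subunits, 5 of which are given here. The KO minus WT log2 difference in EBs exceeded that in ESCs by 0.94 for Atp5mpl, 0.98 for Ndufa11, 2.69 for Cox6b2, 1.28 for Ndufb11 and 1.46 for Cox7b. The change per hour after actinomycin differed between KO and WT EBs for 3 subunits, by 0.30 log2 units per hour for Uqcrfs1, 0.22 for Uqcrb and 0.36 for Atp5md. The slope calls were lost under each other scaling. So were the level calls of Atp5mpl and Ndufa11, each of which held in 3 of 22 alternatives. Ndufb11 lost its level call with ribosomal protein scaling and kept it in 10 of 22, while Cox6b2 and Cox7b kept theirs in 14 and 17.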

How the results depend on the processing

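No paired analysis was possible because each group has 1 library and the labels give no replicate numbers; KO and WT share hours, and the additive time terms below set them against each other at matched hours. Counts are of the 82 subunits called by limma. For KO minus WT in ESCs (11) there were 7 with no filter on low levels, 18 with median-ratio scaling, 1 with no variance trend and 2 with additive time terms. For KO minus WT in EBs (10) there were 6 with equal column totals, 3 with median-ratio scaling, 12 with ribosomal protein scaling (3 higher, 9 lower, so reversed), 2 with no variance trend, 3 with additive terms and 1 without both EB libraries of 8 h. For EB minus ESC in WT (76) the 3 scalings gave 21, 32 and 23 and leaving out both 8 h EB libraries gave 48. In KO (49) the scalings gave 1, 0 and 15, no variance trend 0, additive terms 4 and leaving out both 8 h EB libraries 4. For the difference between cell types (6) no filter gave 2, a filter of 20 ppm 10, no variance trend 0, additive terms 1 and leaving out both 8 h EB libraries 0. For the mean slope (5) a filter of 20 ppm gave 9, no variance trend 0 and leaving out both 8 h EB libraries 0. The equal-total, median-ratio and ribosomal scalings reversed it to mostly higher, with 19, 22 and 10, and under median-ratio scaling the slope of Uqcrc1 was 0.001. For KO minus WT slopes in EBs (3) a filter of 20 ppm gave 21, and 0 came from a pseudocount of 0.2 ppm, no filter, each scaling, no variance trend and leaving out both 8 h EB libraries. For EB minus ESC slopes (0) a filter of 20 ppm gave 20.

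Leaving out 1 library at a time gave 2 to 12, 2 to 13, 53 to 76, 2 to 55, 0 to 8 and 0 to 6 for the 5 level comparisons and the mean slope in that order. It gave 0 to 0, 0 to 15 and 0 to 10 for the slope differences (KO minus WT in ESCs, in EBs, EB minus ESC). Without the WT EB library of 8 h the mean slope gave 1, a higher call. The median shares left at 8 h under equal totals, median-ratio and ribosomal scaling were 124.4, 136.1 and 105.2% in KO EBs, 102.2, 97.39 and 106.6% in WT EBs, 128.3, 146.5 and 102.4% in KO ESCs, and 132.1, 161.5 and 100.1% in WT ESCs. Of 1025 values of 47 named results under alternatives, 613 kept the direction and the call, 411 kept the direction and lost the call, and 1 reversed. Causes of these changes were not tested.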
